A study of Homo sapiens with 6 samples.

Results

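The spliceosome removes introns from pre-mRNA, and 48 genes of its core proteins outside the U5 particle were examined here in Hep G2 cells that overexpressed the U5 protein EFTUD2. The 48 genes were chosen by name from the 23524 rows of the expression table, and each name matched 1 row. They encode 7 Sm proteins, 3 proteins of the U1 particle, 10 of the U2 particle, 2 subunits of U2AF, 7 LSm proteins, 5 proteins of the U4/U6 particle and the tri-snRNP, 7 of the Prp19 complex (NTC) and its associates, 4 helicases and 3 factors of the second step. Hep G2 is an established line from a human liver tumor. The control cells had been infected with an empty lentivirus vector and the other cells with a lentivirus that expresses EFTUD2, so that both groups are stably infected lines and differ in the insert. Each group had 3 poly-A selected libraries, and the deposited values are FPKM, that is fragments scaled by the length of the transcript and by library size. The sources used here do not state the promoter of the vector, whether a line is a clone or a pool, or whether the 3 libraries came from separate cultures, so the p-values measure only the spread between these libraries, which may be technical.

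The U1, U2, U4, U5 and U6 particles (snRNPs) each hold a small nuclear RNA and proteins. A ring of Sm proteins sits on the RNA of U1, U2, U4 and U5, and a related ring of LSm proteins sits on U6. U1 recognizes the start of an intron, while U2AF and U2 recognize its end and the branch point. The tri-snRNP of U4, U6 and U5 then joins, and with the NTC and a series of RNA helicases the complex is activated, passes through both steps of splicing and is taken apart. EFTUD2 is the GTPase of the U5 particle and binds the U5 proteins PRPF8 and SNRNP200. Every cell type uses this machinery, and dividing cells express it highly.

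EFTUD2 stood at 41.1, 54.4 and 46.3 FPKM (control) and 107, 103 and 109 FPKM (EFTUD2). Here and below, levels are listed in the order of replicates 1 to 3, and a log2 fold change is EFTUD2-overexpressing minus control cells, ± its standard error from limma with n = 3 libraries per group, beside limma's p adjusted over all genes tested. The groups did not overlap (log2 fold change 1.16 ± 0.12, adjusted p = 0.13). The FPKM of all rows summed to between 404342.5 and 434542.5 per library. FPKM hold no read numbers, so the depth is unknown and no counting interval can be given. EFTUD2 replicate 3 stood apart from the other libraries. In it the 86 genes of ribosomal proteins took 20.1% of all FPKM, against 14.7% to 15.8% elsewhere. Without it, 38 of the 48 log2 fold changes moved by over 1.5 times or changed sign. This was not counted over all genes, and the 38 include values near 0, such as SNRPE at 0.01 with that library and 0.06 without. All 10 hepatocyte genes were present in every library and summed to 7240.8 to 11098.53 FPKM in the controls and 9889.17 to 14847.74 FPKM in the EFTUD2 libraries. Fibroblast, macrophage and endothelial genes summed to at most 4.82, 35.61 and 1.60 FPKM in any library, with COL1A2 and TYROBP at 0 in all of them and CD68 supplying most of the macrophage sum. Of the 4 basal epithelial genes, KRT5 was at 0 in all libraries, and the sum was 1.12 to 1.80 FPKM (control) and 67.2, 135.96 and 9.39 FPKM (EFTUD2), nearly all of it from KRT17. Vimentin (VIM), a mesenchymal gene, stood at 23.2, 59.6 and 2.87 FPKM (EFTUD2), with at most 0.12 FPKM in a control.

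To determine how the core spliceosome genes stood in EFTUD2-overexpressing cells, all 17222 genes whose mean reached 0.1 FPKM were compared between the groups as log2(FPKM + 1) with limma, and the rows of the 48 genes were read from that fit. On this scale the change of genes with low values is understated. All 48 genes passed the filter, and 44 of them reached a mean of 10 FPKM. Their means over the 6 libraries ran from 1.93 FPKM for LSM8 to 283 FPKM for SNRPB, with a median of 35.1 FPKM. Of the 48 genes, 43 had a lower and 5 a higher mean log2 level in EFTUD2-overexpressing cells, and the 5 were SNRPD2, SNRPE, SNRPA, LSM2 and LSM4. The median log2 fold change of the 48 genes was -0.26. It was -0.07 over all genes tested and -0.13 over the 6401 genes whose mean reached 10 FPKM, of which 69.7% were lower.

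None of the 48 genes passed the test. With Benjamini-Hochberg adjustment over all genes tested, limma gave an adjusted p under 0.05 for 0 of them and for 0 of all 17222 genes (0%), and the smallest adjusted p of a member was 0.40. At an unadjusted p under 0.05, 7 members, or 14.6%, were lower (SF3A2, CWC22, SNW1, SF3B2, U2AF1, LSM7 and SART1) and 0 were higher, against 7.9% of all genes lower and 4.4% higher. Of the 6401 genes whose mean reached 10 FPKM, 675 were lower and 184 higher at this p. Over the 17 settings given below, the 7 were lower at this p in 13, 16, 14, 8, 12, 9 and 4 settings, in the same order. All 3 EFTUD2 libraries lay below all 3 controls for 17 members, or 35.4%, and above them for 0. Over all genes tested these shares were 19.4% below and 7.92% above, and over the genes whose mean reached 10 FPKM they were 24.8% and 6.36%. For each of these 17 genes an exact two-sided permutation test gave p = 0.1, the smallest that 3 libraries against 3 can give. The 17 genes were SNRPB, SF3A2, SF3A3, SF3B2, SF3B4, U2AF1, LSM7, SART1, USP39, CDC5L, PLRG1, SNW1, CWC22, DHX38, DHX15, CDC40 and SLU7.

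The size of the shift depended on EFTUD2 replicate 3 and on the scaling. Without EFTUD2 replicate 3 the median log2 fold change of the 48 genes was -0.12, with 38 lower and 10 higher, while that of all genes was -0.04. There were then 8 lower members at an unadjusted p under 0.05, or 16.7% against 8.87% of all genes. The groups of 18 members lay apart, or 37.5% against 25.2% of all genes, and these hold the 17 by construction, since leaving out a library cannot make groups overlap. Under scaling by the median of ratios, the median of the 48 genes was -0.15 with 36 lower and 12 higher, while that of all genes was 0.00, and 7 lower members had groups that did not overlap, or 14.6%, which is near the 12.1% of all genes (SF3B4, SART1, CDC5L, PLRG1, SNW1, CWC22 and DHX38). When each library was centred on its median member, which sets a shift shared by the 48 genes aside, 31 were lower and 17 higher. The count of 7 at an unadjusted p was 3, or 6.25%, without control replicate 1, 2 or 3 or EFTUD2 replicate 1, where the shares over all genes were 3.91%, 4.19%, 4.46% and 6.39%. It was 11, or 22.9%, without EFTUD2 replicate 2, against 8.95% of all genes. Over the 13 of 17 settings tried that kept the scaling as deposited, 30 of the 48 genes were lower in each and 4 were higher in each (SNRPD2, SNRPA, LSM2 and LSM4). The other 14 changed direction in at least 1. Another filter, the replicate number as a block and robust empirical Bayes keep the fold changes of the main fit by construction. These settings therefore add nothing to the counts, which were not made over all genes.

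**Figure D1:**
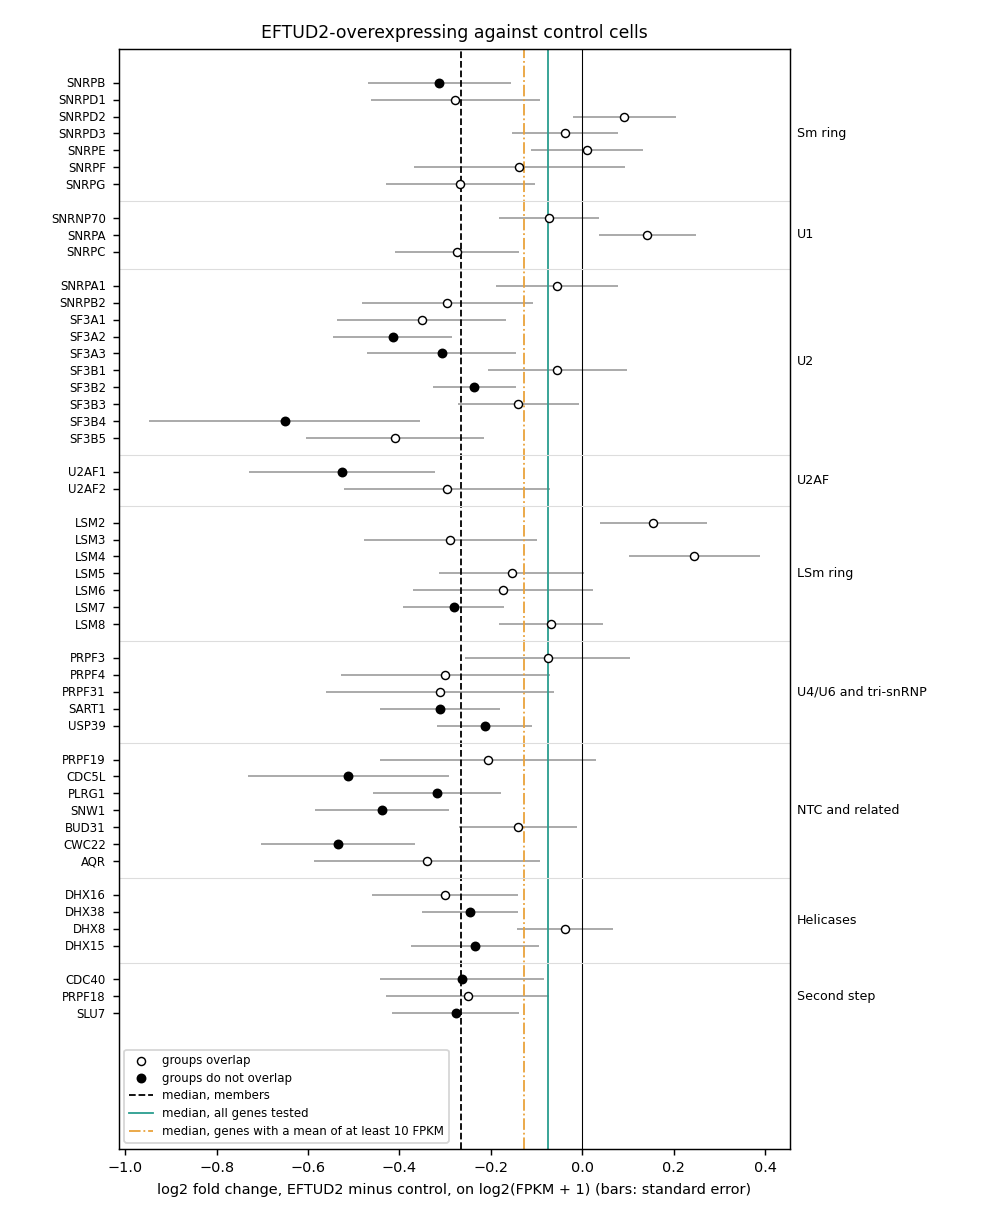
Log2 fold change of each of the 48 genes, EFTUD2-overexpressing minus control cells, on the log2(FPKM + 1) scale (n = 3 libraries per group), with bars for the standard error from limma, grouped by role; filled points mark the 17 genes whose groups did not overlap. The dashed line is the median of the 48 genes (-0.26), the solid line that of all genes tested (-0.07) and the dash-dotted line that of genes whose mean reached 10 FPKM (-0.13), and most points lie to the left of both lines for other genes.

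**Figure D2:**
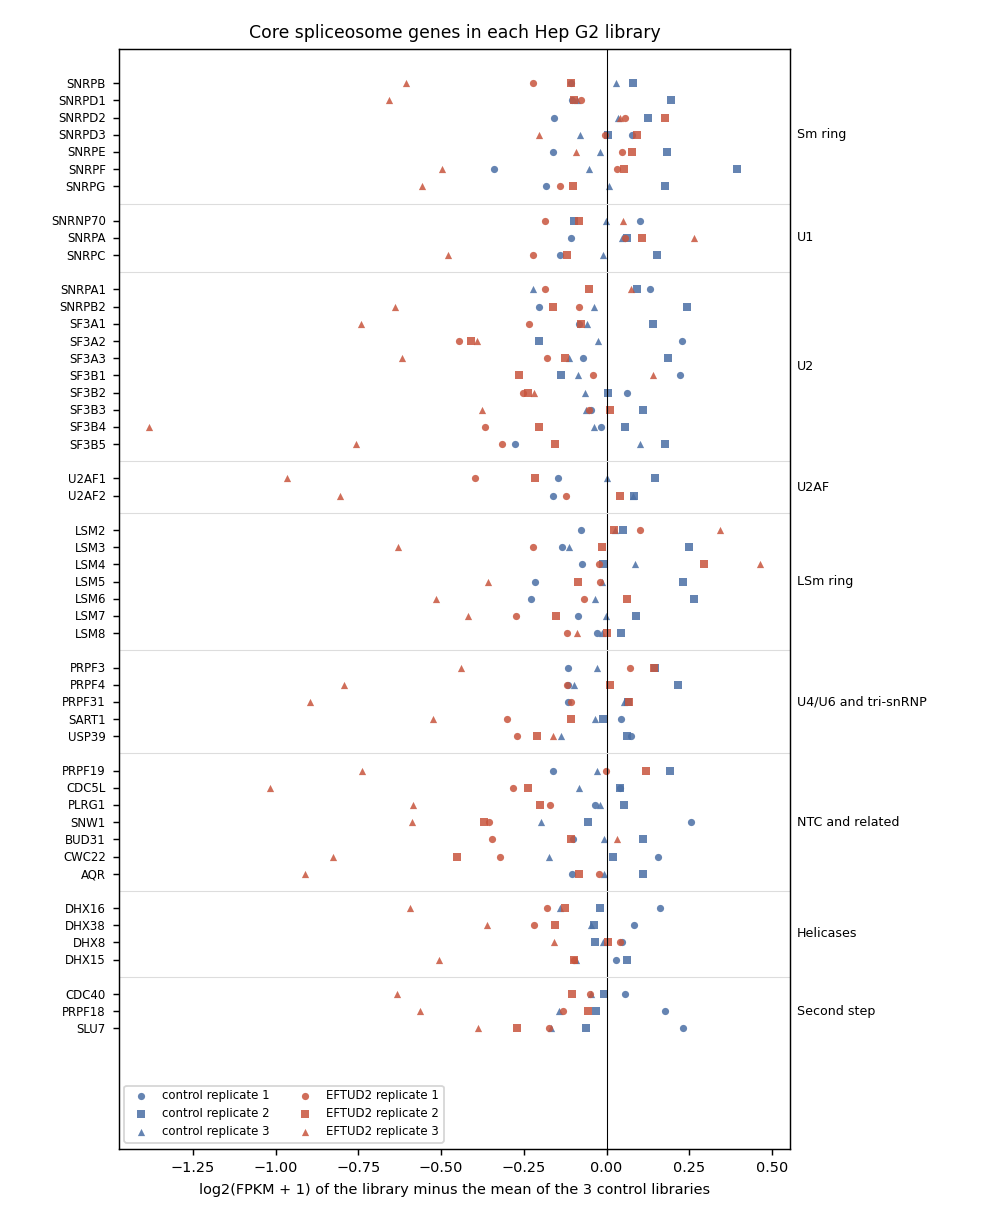
Log2(FPKM + 1) of each of the 48 genes in each library minus the mean of the 3 control libraries, with blue for control, red for EFTUD2 and the marker shape for the replicate number. The triangles of EFTUD2 replicate 3 lie farthest to the left for most genes, with 35 of the 48 at their lowest value of all 6 libraries there. LSM4, LSM2 and SNRPA have their highest value in that library. It lay below all 3 controls for 81.2% of the 48 genes and 51.3% of all genes tested. For genes whose mean reached 10 FPKM this share was 59.7%. How many of all genes had their lowest value there was not counted.

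The promoters of 44 of the 48 genes were found in RefSeq (GRCh38.p14, 250 bases before to 50 bases after the outermost start site of each gene). PRPF3, SNRPD1, SF3B3 and LSM6 were not matched. The letters CCGGAAG, a sequence read by ETS family transcription factors, stood in 24 of the 44 promoters on either strand (54.5%). They stood in 18.4% of the 11092 promoters of genes tested and 22.2% of the 5224 promoters of genes whose mean reached 10 FPKM. AAGATGG (YY1) was found in 13.6% of the 44 against 7.17% of all, GCATGCGC (NRF1) in 9.09% against 5.35%, GGGCGG (SP1) in 65.9% against 68.1%, CCAAT in 31.8% against 36.7% and TATAAA in 4.55% against 6.37%. Members with the ETS letters had a median log2 fold change of -0.28 (n = 24) and those without had one of -0.25 (n = 20), and the difference between these medians was not tested. These are matches of letters and not sites of binding.

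Promoters of 4 genes are given to show this range. SF3B4 (chr1:149927754-149928053, minus strand of the chromosome) had the lowest log2 fold change of the 48 genes and SF3A2 (chr19:2236574-2236873, plus strand) the smallest p, and both hold the ETS letters, which begin 26 and 9 bases before the start site. LSM4 (chr19:18323027-18323326, minus strand) had the highest log2 fold change and lacks the full CCGGAAG, although the shorter GGAAG stands in it. CWC22 (chr2:180007248-180007547, minus strand) holds no match to any of the 6 motifs. Capitals mark the matches on either strand, and GGGCGG also appears as CCGCCC, GCATGCGC as GCGCATGC and CCAAT as ATTGG.
SF3B4: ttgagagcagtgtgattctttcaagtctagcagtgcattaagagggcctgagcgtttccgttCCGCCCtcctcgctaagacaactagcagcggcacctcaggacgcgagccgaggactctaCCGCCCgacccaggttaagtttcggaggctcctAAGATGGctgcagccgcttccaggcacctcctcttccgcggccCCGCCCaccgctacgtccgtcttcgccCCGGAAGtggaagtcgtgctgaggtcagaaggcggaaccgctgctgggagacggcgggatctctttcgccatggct
SF3A2: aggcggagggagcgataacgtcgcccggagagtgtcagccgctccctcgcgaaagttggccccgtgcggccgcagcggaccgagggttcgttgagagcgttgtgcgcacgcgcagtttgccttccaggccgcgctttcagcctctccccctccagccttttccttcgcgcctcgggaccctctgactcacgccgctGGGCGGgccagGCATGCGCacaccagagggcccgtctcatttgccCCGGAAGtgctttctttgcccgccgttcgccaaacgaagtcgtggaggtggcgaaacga
LSM4: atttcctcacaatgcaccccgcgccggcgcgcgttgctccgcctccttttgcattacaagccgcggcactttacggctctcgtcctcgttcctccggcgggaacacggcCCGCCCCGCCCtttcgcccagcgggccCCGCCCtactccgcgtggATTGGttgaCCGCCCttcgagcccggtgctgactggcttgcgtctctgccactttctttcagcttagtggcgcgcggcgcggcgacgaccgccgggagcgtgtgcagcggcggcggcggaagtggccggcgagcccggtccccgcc
CWC22: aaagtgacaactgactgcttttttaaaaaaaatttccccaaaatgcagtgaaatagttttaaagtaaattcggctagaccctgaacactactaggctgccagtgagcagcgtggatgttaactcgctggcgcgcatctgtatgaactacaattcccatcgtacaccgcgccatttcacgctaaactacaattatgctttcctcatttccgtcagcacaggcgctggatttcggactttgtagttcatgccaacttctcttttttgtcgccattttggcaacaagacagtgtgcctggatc

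The Sm ring, which is assembled in the cytoplasm on the RNA of U1, U2, U4 and U5, was among the groups with the smallest shift. Its 7 genes had a median log2 fold change of -0.14, with 5 lower and 2 higher. The sign of this median was not stable, since it was 0.04 without EFTUD2 replicate 3 and 0.03 with array weights. Here and below, that setting rests mostly on a few libraries, and its estimation stopped before it converged. It gave control replicate 3 a weight of 27.7, but EFTUD2 replicates 1 to 3 weights of 0.035, 2.30 and 0.26. SNRPB (Entrez gene 6628), which encodes the B proteins of the ring, had the highest level per length of the 48 genes, at 290.00, 330.1 and 319 FPKM (control) and 267, 289.7 and 205 FPKM (EFTUD2). Its groups did not overlap, and the third EFTUD2 library was the lowest (log2 fold change -0.31 ± 0.16, adjusted p = 0.42, and log2 fold change -0.17 without EFTUD2 replicate 3). SNRPD2 (Entrez gene 6633), which encodes the D2 protein, stood at 81.5, 99.5 and 93.5 FPKM (control) and 94.8, 103 and 93.7 FPKM (EFTUD2), and its groups overlapped (log2 fold change 0.09 ± 0.11, adjusted p = 0.70). The other 5 genes, SNRPD1, SNRPD3, SNRPE, SNRPF and SNRPG, had log2 fold changes from -0.28 to 0.01 with overlapping groups, and from -0.12 to 0.06 without EFTUD2 replicate 3. In EFTUD2 replicate 3 SNRPD1, SNRPF and SNRPG stood 0.66, 0.50 and 0.56 below the control mean on the log2 scale, whereas SNRPD3 and SNRPE stood 0.20 and 0.09 below it, so the ring did not shift as a unit there. SNRPN, the paralog of SNRPB, stood at 47.4, 39.9 and 45.1 FPKM (control) and 40.2, 38.4 and 45.6 FPKM (EFTUD2), and how reads shared by the pair were split is not given.

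The proteins of the U1 particle had a median log2 fold change of -0.07, which was -0.13 without EFTUD2 replicate 3 and turned to 0.04 under scaling by the median of ratios. SNRPA (Entrez gene 6626), the U1-A protein that binds a loop of U1 RNA, stood at 37.3, 42.02 and 41.5 FPKM (control) and 41.9, 43.4 and 48.5 FPKM (EFTUD2). Control replicate 2 lay just above the lowest EFTUD2 library, so the groups overlapped (log2 fold change 0.14 ± 0.11, adjusted p = 0.53, and log2 fold change 0.08 without EFTUD2 replicate 3), but they came apart under scaling by the median of ratios (log2 fold change 0.26). SNRPC (Entrez gene 6631), the U1-C protein that stabilizes the pairing of U1 with the start of the intron, stood at 91.4, 112 and 100.3 FPKM (control) and 86.5, 92.8 and 72.2 FPKM (EFTUD2). EFTUD2 replicate 2 lay within the control range (log2 fold change -0.27 ± 0.14, adjusted p = 0.42, and log2 fold change -0.17 without EFTUD2 replicate 3). SNRNP70, which encodes U1-70K, had a log2 fold change of -0.07, or -0.13 without EFTUD2 replicate 3, and overlapping groups. In EFTUD2 replicate 3 the U1 genes went apart, with SNRPC at its lowest level of the 6 libraries and SNRPA at its highest.

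All 10 genes of the U2 particle had a lower mean in EFTUD2-overexpressing cells (median log2 fold change -0.30). Of them, 9 were lower under quantile normalization, 8 under scaling by the median of ratios or array weights and 7 after centring on the median member. With 1 library left out, 8 were lower without control replicate 1, where SNRPA1 was at 0.01, and 9 without EFTUD2 replicate 1 or 2. For SF3A2, SF3A3, SF3B2 and SF3B4 the groups did not overlap. The summed level of the 10 genes was 620 ± 23.03 FPKM (SD, n = 3) in the controls and 519 ± 35.6 FPKM (SD, n = 3) in the EFTUD2 libraries, and without EFTUD2 replicate 3 the median log2 fold change was -0.15. SF3A2 (Entrez gene 8175), a subunit of the SF3a complex that helps to place U2 on the branch point, stood at 39.9, 29.3 and 33.2 FPKM (control) and 24.6, 25.3 and 25.6 FPKM (EFTUD2). The 3 EFTUD2 libraries were nearly equal, the controls were spread (34.1 ± 5.35 against 25.2 ± 0.50 FPKM, SD, n = 3 each), and the difference did not pass the adjusted threshold (log2 fold change -0.41 ± 0.13, adjusted p = 0.40; unadjusted p = 0.016). It was among the 10 members whose level in EFTUD2 replicate 3 was above that in replicates 1 and 2. SF3B2 (Entrez gene 10992), a subunit of the SF3b complex that contacts the branch region, also varied little within the EFTUD2 group, at 102, 98.3 and 93.7 FPKM (control) and 82.2, 82.99 and 84.1 FPKM (EFTUD2). The gap between the groups was wider than the range within either (log2 fold change -0.24 ± 0.09, adjusted p = 0.40; unadjusted p = 0.036).

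SF3B4 (Entrez gene 10262), the SF3b subunit that binds RNA upstream of the branch point, had the lowest fold change of the 48 genes, and 1 library set its size. It stood at 38.2, 40.2 and 37.7 FPKM (control) and 29.8, 33.5 and 14.2 FPKM (EFTUD2). The means were 38.7 ± 1.36 and 25.8 ± 10.2 FPKM (SD, n = 3 each, with log2 fold change -0.65 ± 0.30, adjusted p = 0.41), and without EFTUD2 replicate 3 the log2 fold change was -0.29 with an adjusted p of 0.20. SF3B1 (Entrez gene 23451), the largest SF3b subunit and a gene recurrently mutated in cancers, went the other way in that library, at 138, 108 and 112 FPKM (control) and 115, 98.3 and 131 FPKM (EFTUD2). The groups overlapped widely (log2 fold change -0.05 ± 0.15, adjusted p = 0.87, and log2 fold change -0.15 without EFTUD2 replicate 3), and the sign turned to 0.06 under scaling by the median of ratios or without control replicate 1, and to 0.05 without EFTUD2 replicate 2. The ratio of EFTUD2 replicate 3 to the mean of replicates 1 and 2 was thus 0.45 for SF3B4 and 1.22 for SF3B1, which encode subunits of the same complex. SNRPA1, SNRPB2, SF3A1, SF3A3, SF3B3 and SF3B5 had log2 fold changes from -0.41 for SF3B5 to -0.06 for SNRPA1, and without EFTUD2 replicate 3 from -0.24 for SF3B5 to -0.02 for SF3B3.

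U2AF reads the end of the intron before U2 binds, and both of its genes were lower in all 17 settings (median log2 fold change -0.41, and log2 fold change -0.17 without EFTUD2 replicate 3). U2AF1 (Entrez gene 7307), the subunit that contacts the AG at the end of the intron, stood at 88.9, 109 and 98.6 FPKM (control) and 74.6, 84.7 and 49.97 FPKM (EFTUD2). The groups did not overlap (log2 fold change -0.53 ± 0.20, adjusted p = 0.40; unadjusted p = 0.037), and without EFTUD2 replicate 3 the log2 fold change was -0.31. LOC102724594, the row of a near-identical copy of U2AF1, held 1.23 to 4.05 FPKM in the controls and 0.13 to 2.56 FPKM with EFTUD2, and how reads were divided between the copies is not given. U2AF2 (Entrez gene 11338), the subunit that binds the polypyrimidine tract, stood at 50.9, 60.5 and 60.4 FPKM (control) and 52.3, 58.8 and 32.2 FPKM (EFTUD2). EFTUD2 replicates 1 and 2 lay within the control range (log2 fold change -0.30 ± 0.23, adjusted p = 0.53), and without replicate 3 the log2 fold change was -0.04.

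The LSm ring, which binds the end of U6 RNA, had a median log2 fold change of -0.15 and held the 2 genes with the highest fold changes of the 48. Its median was -0.05 without EFTUD2 replicate 3 and 0.01 with array weights. LSM4 (Entrez gene 25804) stood at 37.3, 38.98 and 41.8 FPKM (control) and 38.7, 48.4 and 54.6 FPKM (EFTUD2). EFTUD2 replicates 2 and 3 were above every control and replicate 1 was within their range (log2 fold change 0.25 ± 0.14, adjusted p = 0.45, and log2 fold change 0.14 without EFTUD2 replicate 3). LSM2 stood at 38.5, 42.2 and 41.5 FPKM (control) and 43.7, 41.3 and 51.9 FPKM (EFTUD2), with the highest level in EFTUD2 replicate 3 (log2 fold change 0.16, and log2 fold change 0.06 without EFTUD2 replicate 3). LSM7 (Entrez gene 51690) stood at 91.1, 103 and 96.5 FPKM (control) and 79.8, 86.8 and 72.2 FPKM (EFTUD2). Its groups did not overlap (log2 fold change -0.28 ± 0.11, adjusted p = 0.40; unadjusted p = 0.039). LSM3 (Entrez gene 27258) stood at 41.5, 54.4 and 42.2 FPKM (control) and 38.99, 45.2 and 29.1 FPKM (EFTUD2), where only replicates 1 and 3 lay below every control (log2 fold change -0.29 ± 0.19, adjusted p = 0.48, and log2 fold change -0.12 without EFTUD2 replicate 3). LSM5, LSM6 and LSM8 had log2 fold changes from -0.17 to -0.07 and overlapping groups, and their log2 fold changes were between -0.06 and -0.0035 without EFTUD2 replicate 3. LSM8, the subunit that marks the nuclear ring, was the lowest of the 48 genes, at 1.94, 2.09 and 1.97 FPKM (control) and 1.76, 2.0 and 1.82 FPKM (EFTUD2). LSM1, which takes its place in the cytoplasmic ring that acts in mRNA decay, stood at 17.1, 21.5 and 20.01 FPKM (control) and 16.2, 17.5 and 12.5 FPKM (EFTUD2).

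The Sm and LSm rings have 7 places each, and the genes for matching places differed in level and in shift. In the control mean SNRPB stood at 313 FPKM and its counterpart LSM8 at 2.0 FPKM, a ratio of 156, whereas the other pairs had ratios from 0.74 (SNRPD3 to LSM4) to 3.17 (SNRPF to LSM6). Within the LSm ring the highest control mean (LSM7, 96.9 FPKM) was 48.4 times the lowest (LSM8), and within the Sm ring the highest (SNRPB) was 10.7 times the lowest (SNRPD3, 29.3 FPKM). The log2 fold changes were -0.28 for SNRPD1 against 0.16 for LSM2, 0.09 for SNRPD2 against -0.29 for LSM3, and -0.04 for SNRPD3 against 0.25 for LSM4, so the LSm gene was the higher of the pair at the D1 and D3 places and the Sm gene at the D2 place. For SNRPE and LSM5 they were 0.01 and -0.15, for SNRPF and LSM6 -0.14 and -0.17, and for SNRPG and LSM7 -0.27 and -0.28. Without EFTUD2 replicate 3 the values at the first 3 of these places were -0.09 and 0.06, 0.12 and -0.12, and 0.04 and 0.14, in the same order. The difference within a pair was not tested.

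**Figure D3:**
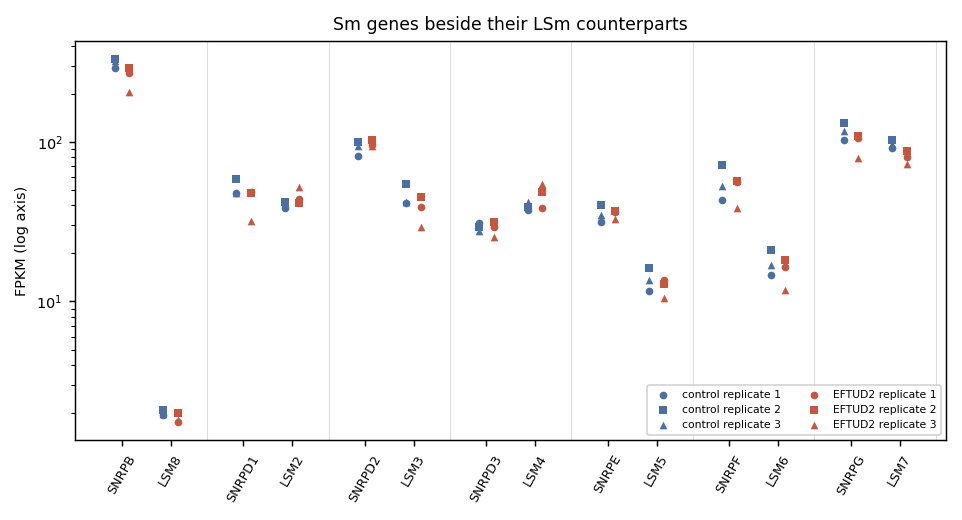
FPKM on a log axis of each Sm gene beside the LSm gene for the matching place of the ring, with each library as a point, blue for control and red for EFTUD2 cells, and the marker shape for the replicate number. SNRPB and LSM8 lie at opposite ends of the axis, and in EFTUD2 replicate 3 (red triangles) most genes are lowest while LSM2 and LSM4 are highest.

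The 5 genes of the U4/U6 particle and the tri-snRNP had a median log2 fold change of -0.30, with all 5 lower, 4 lower under quantile normalization, scaling by the median of ratios or centring on the median member, and 3 lower with array weights. Without EFTUD2 replicate 3 the median was -0.05. SART1 (Entrez gene 9092), which joins the tri-snRNP to the spliceosome, stood at 23.9, 22.99 and 22.6 FPKM (control) and 18.6, 21.4 and 15.8 FPKM (EFTUD2). The controls were close together and all EFTUD2 libraries were below them (log2 fold change -0.31 ± 0.13, adjusted p = 0.40; unadjusted p = 0.049, and log2 fold change -0.20 without EFTUD2 replicate 3). USP39, a ubiquitin protease homolog of the tri-snRNP, stood at 44.6, 44.2 and 38.4 FPKM (control) and 34.9, 36.5 and 37.7 FPKM (EFTUD2), with no overlap and with EFTUD2 replicate 3 as the highest of its group. PRPF31 (Entrez gene 26121), which links U4/U6 with U5, stood at 20.7, 23.6 and 23.4 FPKM (control) and 20.9, 23.7 and 11.7 FPKM (EFTUD2). Only replicate 3 was below the controls (log2 fold change -0.31 ± 0.25, adjusted p = 0.55), and without it the log2 fold change was -0.02. PRPF3 (Entrez gene 9129), a U4/U6 protein, stood at 12.3, 14.97 and 13.2 FPKM (control) and 14.2, 14.9 and 9.64 FPKM (EFTUD2). The groups overlapped (log2 fold change -0.08 ± 0.18, adjusted p = 0.85), and the sign turned to 0.11 without EFTUD2 replicate 3 and to 0.03 under scaling by the median of ratios. PRPF4, its partner in U4/U6, was at 9.89 FPKM in EFTUD2 replicate 3 and at 16.4 to 20.9 FPKM in the other libraries.

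The NTC and its associates, which remodel the complex at activation and stay through both steps, had a median log2 fold change of -0.34 with all 7 genes lower, 6 of them lower with array weights, after centring on the median member or without EFTUD2 replicate 3. For CDC5L, PLRG1, SNW1 and CWC22 the groups did not overlap, as deposited and under each of the 4 other scalings. CWC22 (Entrez gene 57703), which brings the exon junction complex protein EIF4A3 to the spliceosome, stood at 16.1, 14.5 and 12.6 FPKM (control) and 11.2, 10.2 and 7.64 FPKM (EFTUD2). All EFTUD2 libraries were lower than all controls (log2 fold change -0.53 ± 0.17, adjusted p = 0.40; unadjusted p = 0.016). Its unadjusted p was under 0.05 in 16 of the 17 settings, the most of any member, and its adjusted p ran from 0.19 to 0.68. SNW1 (Entrez gene 22938), also known as a transcriptional coregulator, stood at 45.98, 36.9 and 33.4 FPKM (control) and 29.8, 29.5 and 25.2 FPKM (EFTUD2). The lowest control was above the highest EFTUD2 library (log2 fold change -0.44 ± 0.15, adjusted p = 0.40; unadjusted p = 0.020). CDC5L, a Myb-related protein at the centre of the complex, stood at 12.6, 12.6 and 11.5 FPKM (control) and 9.86, 10.2 and 5.53 FPKM (EFTUD2) (log2 fold change -0.51), and without EFTUD2 replicate 3 the log2 fold change was -0.26.

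BUD31 (Entrez gene 8896) had the fold change nearest 0 among these 7 genes, at 34.1, 39.6 and 36.5 FPKM (control) and 28.6, 33.9 and 37.4 FPKM (EFTUD2). Replicates 1 and 2 were below every control and replicate 3 was within their range (log2 fold change -0.14 ± 0.13, adjusted p = 0.60), so that without replicate 3 the groups did not overlap (log2 fold change -0.23). PRPF19, the ubiquitin ligase that names the complex, showed the opposite order, at 41.4, 53.2 and 45.5 FPKM (control) and 46.4, 50.6 and 27.4 FPKM (EFTUD2), and replicate 3 alone was below the controls. AQR, an intron-binding helicase, stood at 8.11, 9.56 and 8.74 FPKM (control) and 8.63, 8.23 and 4.20 FPKM (EFTUD2), also with replicate 3 as the lowest library. PLRG1, a WD-repeat partner of CDC5L, had a log2 fold change of -0.32 with no overlap, and -0.19 without EFTUD2 replicate 3.

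The 4 helicases act in turn, with DHX16 before the first step, DHX38 between the steps, DHX8 at the release of mRNA and DHX15 at the disassembly of the complex. All 4 had a lower mean (median log2 fold change -0.24, and log2 fold change -0.13 without EFTUD2 replicate 3), but DHX8 turned to 0.02 without EFTUD2 replicate 3, to 0.07 under scaling by the median of ratios and to 0.10 under quantile normalization. DHX38 (Entrez gene 9785) stood at 33.3, 30.5 and 30.3 FPKM (control) and 26.8, 28.01 and 24.2 FPKM (EFTUD2). Its groups did not overlap (log2 fold change -0.25 ± 0.10, adjusted p = 0.40; unadjusted p = 0.051). DHX16 (Entrez gene 8449) stood at 28.9, 25.3 and 23.2 FPKM (control) and 22.6, 23.5 and 16.7 FPKM (EFTUD2), where replicate 2 lay above the lowest control (log2 fold change -0.30 ± 0.16, adjusted p = 0.43, and log2 fold change -0.15 without EFTUD2 replicate 3). DHX8 (Entrez gene 1659) was nearly level, at 17.5, 16.5 and 16.8 FPKM (control) and 17.5, 17.02 and 15.1 FPKM (EFTUD2) (log2 fold change -0.04 ± 0.11, adjusted p = 0.87). DHX15 stood at 52.8, 54.03 and 48.5 FPKM (control) and 48.2, 48.3 and 36.1 FPKM (EFTUD2), with EFTUD2 replicates 1 and 2 just below the lowest control.

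CDC40, PRPF18 and SLU7 act at the second step, in which the exons are joined, and all 3 had a lower mean (median log2 fold change -0.26, and log2 fold change -0.09 without EFTUD2 replicate 3), with PRPF18 at 0.02 under array weights. SLU7 (Entrez gene 10569), which helps to choose the AG at the end of the intron, stood at 21.6, 17.4 and 16.1 FPKM (control) and 16.1, 14.97 and 13.7 FPKM (EFTUD2). The groups were separated by the narrow gap between control replicate 3 and EFTUD2 replicate 1 (log2 fold change -0.28 ± 0.14, adjusted p = 0.42). PRPF18 (Entrez gene 8559) stood at 7.39, 6.27 and 5.72 FPKM (control) and 5.78, 6.14 and 4.03 FPKM (EFTUD2), and its groups overlapped (log2 fold change -0.25 ± 0.18, adjusted p = 0.51, and log2 fold change -0.09 without EFTUD2 replicate 3). CDC40 stood at 8.33, 7.92 and 7.68 FPKM (control) and 7.67, 7.35 and 4.78 FPKM (EFTUD2), and its groups did not overlap, although EFTUD2 replicate 1 was only just under the lowest control.

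EFTUD2 replicate 3 accounted for much of the shift of the 48 genes. Against the control mean, the median member stood at -0.14 in EFTUD2 replicate 1, -0.10 in replicate 2 and -0.51 in replicate 3 on the log2 scale, where all genes tested had medians of -0.05, -0.04 and -0.15 and genes whose mean reached 10 FPKM had -0.07, -0.05 and -0.25. Each control set against the other two gave medians of -0.11, 0.11 and -0.05 for the 48 genes, so the shifts of EFTUD2 replicates 1 and 2 were of about the size of the spread among controls. The number of members below all 3 controls was 26, 19 and 39 in EFTUD2 replicates 1 to 3, or 54.2%, 39.6% and 81.2%. Over all genes tested the shares were 34.5%, 34.8% and 51.3%, and over genes whose mean reached 10 FPKM they were 40.7%, 38.1% and 59.7%. The share of members in replicate 2 was thus near that of other expressed genes. Members above all 3 controls numbered 1, 5 and 3, or 2.08%, 10.4% and 6.25%. The shares were 20.4%, 23.7% and 25.8% of all genes tested, and 14.7%, 19.4% and 22.2% of genes whose mean reached 10 FPKM. Of the 48 genes, 18 were below every control in both EFTUD2 replicates 1 and 2, namely the 17 without overlap and BUD31.

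Within the EFTUD2 group, replicate 3 was below both of the other replicates for 37 members and above both for 10, with LSM8 between them. The 10 were SNRNP70, SNRPA, SNRPA1, SF3A2, SF3B1, SF3B2, LSM2, LSM4, USP39 and BUD31. Of all 17222 genes tested, 9960 were below both in replicate 3 and 5393 above both. Of the 6401 genes whose mean reached 10 FPKM, 4058 were below both and 1882 above both. The median member differed by -0.40 on the log2 scale between replicate 3 and the mean of replicates 1 and 2 (quartiles -0.54 and -0.13), against -0.14 over all genes tested and -0.20 over genes whose mean reached 10 FPKM. The ratio of replicate 3 to that mean was lowest for SF3B4 (0.45), AQR (0.50), PRPF31 (0.52) and CDC5L (0.55), and highest for LSM4 (1.25), LSM2 (1.22) and SF3B1 (1.22). EFTUD2 itself was at 109 FPKM in replicate 3 and at 107 and 103 FPKM in replicates 1 and 2.

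**Figure D4:**
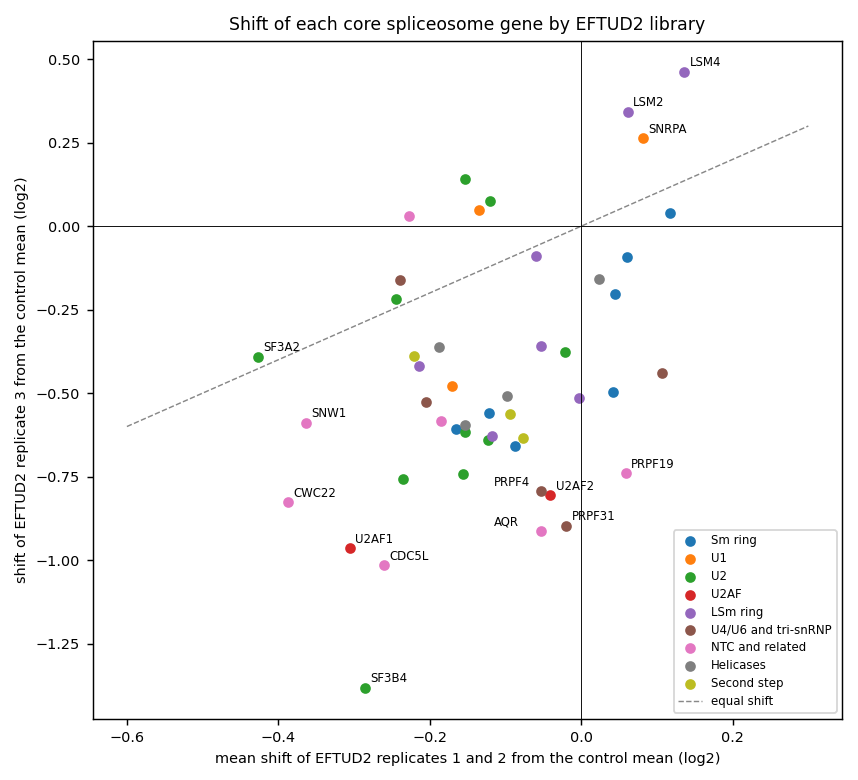
Shift of each of the 48 genes from the control mean on the log2(FPKM + 1) scale, with the mean of EFTUD2 replicates 1 and 2 on the x axis and EFTUD2 replicate 3 on the y axis, coloured by role; the dashed line marks an equal shift. Most genes lie below the line, SF3B4 farthest, while 10 genes such as LSM4, LSM2 and SNRPA lie above it.

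Some other sums also stood apart in EFTUD2 replicate 3, and they went with those of the 48 genes in some libraries only. The 48 genes summed to 2289, 2544 and 2346 FPKM (control) and to 2125, 2237 and 1812 FPKM (EFTUD2), which is 0.566%, 0.611% and 0.564% and then 0.511%, 0.527% and 0.417% of all FPKM. The 10 S phase genes (PCNA, MCM2 to MCM7, RRM1, RRM2 and TYMS) summed to 486, 792 and 657 FPKM (control) and to 694, 752 and 379.5 FPKM (EFTUD2). This sum was lowest in EFTUD2 replicate 3 and highest in control replicate 2, in which 26 of the 48 members also had their highest level. Control replicate 2 lay above both other controls for 62.5% of members and 33.9% of all genes tested. For genes whose mean reached 10 FPKM this share was 47.8%. In EFTUD2 replicates 1 and 2 the S phase sums were above those of control replicates 1 and 3, whereas the sums of the 48 genes were below them. The 8 G2/M genes summed to 358 to 434 FPKM in every library. The sum of the hepatocyte genes was highest, at 14848 FPKM, and the ribosomal protein genes took the largest share, 20.1%, in EFTUD2 replicate 3. Albumin (ALB) supplied 4732 FPKM of the hepatocyte sum there, whereas the hepatocyte transcription factor HNF4A was at its lowest of the 6 libraries (47.3 FPKM), and AFP, TTR and FGB were not at their highest. In these bulk samples fewer cells of a type and less RNA per cell cannot be told apart, and the part of these values in the levels of the 48 genes was not tested.

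**Figure D5:**
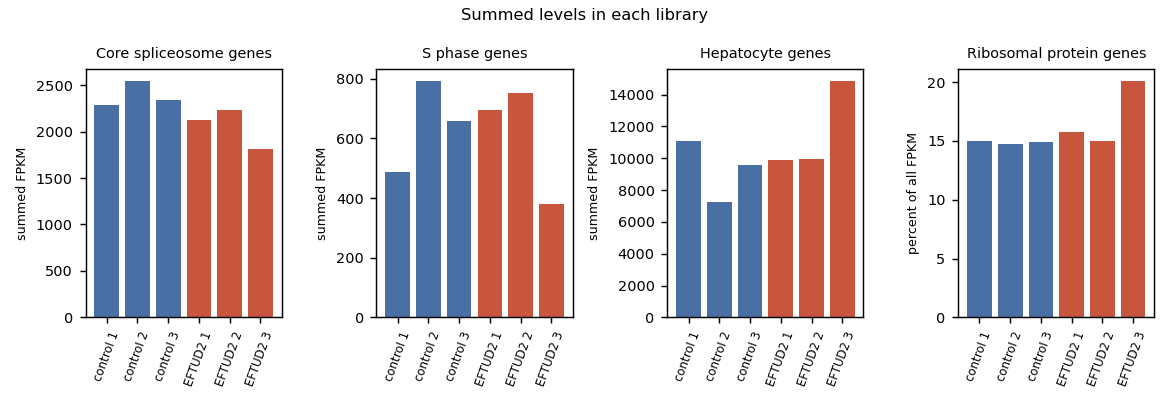
Sums per library, with bars from 0, blue for the 3 control and red for the 3 EFTUD2 libraries, of the FPKM of the 48 core spliceosome genes, of 10 S phase genes and of 10 hepatocyte genes, and the percent of all FPKM taken by 86 ribosomal protein genes. In EFTUD2 replicate 3 the first and second sums are the lowest of the 6 (1812 and 379.5 FPKM), and the hepatocyte sum and the ribosomal share are the highest (14848 FPKM and 20.1%).

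The 82 other splicing genes set beside the 48 had a like distribution, with 74 lower and 8 higher and a median log2 fold change of -0.23. Groups did not overlap for 32 lower genes (39.0%) and 3 higher ones (3.66%). Over all genes tested these shares were 19.4% and 7.92%, and over genes whose mean reached 10 FPKM they were 24.8% and 6.36%. Without EFTUD2 replicate 3 the median of the 82 genes was -0.10, with 58 lower and 24 higher. None of the 82 had an adjusted p under 0.05. At an unadjusted p under 0.05 from limma there were 17 lower genes and 1 higher, EFTUD2, against 7.9% and 4.4% of all genes tested. The 7 U5 partners of EFTUD2 were all lower in their mean, with a median log2 fold change of -0.23, and -0.11 without EFTUD2 replicate 3, with 2 of them then higher. SNRNP40, DDX23 and CD2BP2 had groups that did not overlap, with log2 fold changes of -0.56, -0.45 and -0.40 (adjusted p = 0.40 for each), and -0.31, -0.25 and -0.25 without EFTUD2 replicate 3. PRPF6 and TXNL4A had log2 fold changes of -0.23 and -0.11 and overlapping groups. PRPF8, the protein at the catalytic core, stood at 67.7 ± 2.95 FPKM in the controls and 65.7 ± 9.83 FPKM with EFTUD2 (SD, n = 3 each, with log2 fold change -0.05 ± 0.13, adjusted p = 0.86), and the helicase SNRNP200 at 64.9 ± 3.41 and 61.8 ± 8.51 FPKM (log2 fold change -0.08 ± 0.13, adjusted p = 0.77), and both turned without EFTUD2 replicate 3, to 0.08 and 0.04. CASC3, CTNNBL1 and CRNKL1 were among the genes with the smallest p-values after EFTUD2. CASC3, an exon junction complex protein, stood at 38.2, 35.3 and 32.9 FPKM (control) and 27.1, 26.2 and 24.8 FPKM (EFTUD2) (log2 fold change -0.43 ± 0.10, adjusted p = 0.39). CTNNBL1, a partner of CDC5L in the NTC, stood at 39.1, 45.2 and 39.6 FPKM (control) and 30.5, 29.8 and 23.9 FPKM (EFTUD2) (log2 fold change -0.55 ± 0.13, adjusted p = 0.39). CRNKL1, an NTC scaffold protein, stood at 17.1, 16.6 and 14.6 FPKM (control) and 11.8, 11.9 and 7.64 FPKM (EFTUD2). For each of these 3 genes the groups did not overlap. By list, the median log2 fold change was -0.46 for the 3 disassembly genes, -0.44 for the 14 genes of snRNP assembly, -0.33 for the 5 exon junction complex genes, -0.31 for the 11 other NTC genes, -0.30 for the 14 genes associated with U1 or U2, -0.28 for the 9 minor spliceosome genes, -0.17 for the 8 U5 genes with EFTUD2 among them, -0.13 for the 10 other tri-snRNP and B complex genes and -0.12 for the 8 Sm and LSm paralogs. Without EFTUD2 replicate 3 these medians lay between -0.18 for the other NTC genes and 0.04 for the exon junction complex genes, and that of snRNP assembly was -0.05.

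The 48 genes lay on 20 chromosomes, with 8 on chromosome 19 and 6 on chromosome 6. Some members were neighbours, and since 43 of the 48 genes were lower in their mean, neighbours that are both lower are common among them. SF3A2 and LSM7 lie 72.9 kb apart on chromosome 19, and SART1 and SF3B2 lie 72.2 kb apart on chromosome 11 (GRCh38.p14), and these 4 genes are among the 7 members at an unadjusted p under 0.05. SF3B4 and PRPF3 lie 393.7 kb apart on chromosome 1 and had log2 fold changes of -0.65 and -0.08. Whether position had a part in these levels was not tested. Exons of 14 members overlap those of another gene in GENCODE release 29, in 13 of them a protein-coding gene, as for SF3A2 with PLEKHJ1 and for SNW1 with SLIRP. Whether reads were assigned by strand is not given in the sources used here, so part of the level of these genes may belong to the partner.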

How the data were processed

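RNA was extracted by the authors with TRIzol, selected by its poly-A tail and read on a BGISEQ-500 sequencer, and the FPKM of each gene and library were deposited with 2 decimals. The submitters' processing notes name hg38, HISAT2, Bowtie2, RSEM and DESeq2 without versions or roles, and the annotation is not given in the sources used here. Groups came from the sample titles. From the deposited FPKM, log2(FPKM + 1) was computed, and the 17222 genes whose mean reached 0.1 FPKM were compared with limma 3.58.1 (lmFit, eBayes with trend) in R 4.3.3, with Benjamini-Hochberg adjustment and a threshold of 0.05. The fit was first tested on artificial data with known changes. Groups do not overlap where all 3 libraries of one lie beyond all 3 of the other. Genes given in every library were the members with the highest and lowest log2 fold change of each role, the 8 with the smallest p, EFTUD2, PRPF8, SNRNP200 and the 4 other splicing genes with the smallest p, of which 1 is not reported here. LSM1, LSM2, LSM8, LOC102724594, SNRPN, USP39, PRPF4, CDC5L, PRPF19, AQR, DHX15 and CDC40 were added after their values were seen. The members and lists were chosen with earlier results of these data known. Alternatives were a pseudocount of 0.1, no filter, a minimum mean of 1 FPKM, scaling by the median of ratios, quantile, a common sum or the median member, array weights, robust empirical Bayes, the replicate number as a block, and each library left out. Promoters were read from a RefSeq table (GRCh38.p14), and overlaps of exons from GENCODE release 29. The rest was computed with pandas 2.3.3 and scipy 1.17.1 and drawn with matplotlib 3.10.9 under Python 3.11.15.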

Additional observations from a re-analysis of the deposited data

How the results depend on the processing

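In all 17 settings, limma gave an adjusted p under 0.05 for 0 of the 48 genes, with the smallest adjusted p, 0.088 for SF3A2, under array weights, whose estimation stopped before it converged. The median log2 fold change was negative in each setting, at -0.092 with array weights and between -0.35 and -0.12 when 1 library was left out. In the 13 settings without another scaling 30 of the 48 genes were lower in each and 4 higher in each. Among these 13, the settings that change only the filter, the block or the empirical Bayes step leave the fold changes as they were by construction. Under scaling by the median of ratios, groups without overlap numbered 2 higher and 7 lower and 3 members were lower at an unadjusted p under 0.05, with shares over all genes of 11.9%, 12.1% and 4.91%. Quantile normalization gave 4 higher genes without overlap (9.48% of all genes), centring on the median member gave 1 lower gene at an unadjusted p under 0.05 (2.27%), and array weights gave 1 higher (10.4%). Leaving out 1 library gave 3 to 11 lower and 0 to 1 higher members at this p, and 0 to 2 higher members without overlap, with shares over all genes of 3.91% to 8.95%, 2.16% to 7.82% and 9.74% to 14.7%. EFTUD2 passed the threshold with array weights (log2 fold change 1.14, adjusted p = 0.0069) and without EFTUD2 replicate 3 (1.14, adjusted p = 0.031). With array weights, which rest mostly on control replicate 3 (weight 27.7), 1246 of all 17222 genes passed, and without EFTUD2 replicate 3, 131 did. The log2 fold change of EFTUD2 was between 1.07 and 1.26 when 1 library was left out. Of the other splicing genes, 2 passed with array weights (EFTUD2 and CTNNBL1), and 0 to 1 with 1 library left out. The cause was not tested.

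A scaling moves all members together, so a direction that turns under one says little of a single gene. SF3B1 was at 0.062 under the median of ratios, 0.15 when centred on the median member, and between -0.15 and 0.056 when 1 library was left out, with 0.056 without control replicate 1 and 0.050 without EFTUD2 replicate 2. PRPF3 was at 0.032 under the median of ratios, 0.074 under quantile normalization, 0.13 when centred, 0.10 with array weights and -0.18 to 0.11 when 1 library was left out, and DHX8 at 0.073, 0.096, 0.17, 0.00041 and -0.077 to 0.023, with the highest value without EFTUD2 replicate 3 for both. BUD31 was at 0.062 when centred, and with array weights LSM3 was at 0.013 and PRPF18 at 0.019.

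No pairing of the libraries by replicate number was seen. Deviations from the group means correlated at -0.30, 0.35 and -0.09 across genes for numbers 1 to 3, and not every library correlated best with its own number. With 3 libraries per group these correlations depend on each other, so they cannot exclude a batch shared by number. With the replicate number as a block, 0 members passed and 6 were lower at an unadjusted p under 0.05. Of the 7 members at this p without the block, SF3B2, LSM7 and SART1 were lost, and SF3B4 and CDC5L were gained, while no adjusted call of a member changed. Since FPKM hold no read numbers, the counting error of genes with low values such as LSM8 could not be judged.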
